A study of Mus musculus with 4 samples.

Results

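Autophagy, mitophagy and lysosome genes were followed through cardiomyocyte nuclei of injured and uninjured neonatal mouse hearts. The group was a list of 45 genes chosen by name, and all 45 were found among the 22574 genes of the count matrix. It held 29 autophagy genes, 3 mitophagy genes and 13 lysosome genes.

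The data came from single-nucleus RNA sequencing (snRNA-seq) of 4 libraries, 1 for each combination of genotype and surgery. All mice carried a loxP-flanked Nrf1 gene (Nfe2l1) on a C57BL/6 background according to the treatment protocol, although the strain field of the labels runs from C57BL/6 to C57BL/9 over the 4 samples. The groups called KO carried in addition a Cre recombinase under the aMHC promoter, which is active in cardiomyocytes, and the groups called WT were Nrf1fl/fl mice without it. Pups had myocardial infarction (MI) by ligation of the left anterior descending artery or Sham surgery at postnatal day 3, and tissue below the ligation plane of 4 to 6 hearts of 1 genotype was pooled into each library, 1 day later by the methods of the study. With 1 library per group, no difference below has a replicate check, no test was made, and each value describes the libraries compared.

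Autophagy encloses cytoplasm in a double membrane that later fuses with the lysosome. The ULK complex starts the process, a lipid kinase complex around Beclin 1 marks the membrane, a conjugation system attaches proteins of the Atg8 family to it, and cargo receptors bind both these proteins and the material to be removed. Mitophagy is the same route for damaged mitochondria, which the kinase Pink1 marks. Lysosomes digest the cargo with cathepsins in a lumen that the V-ATPase proton pump keeps acidic, and Tfeb, Tfe3 and Mitf are transcription factors known for driving lysosome genes. The transcription factor encoded by Nfe2l1 is best known for inducing proteasome genes, so the other large route of protein removal in a heart muscle cell is of interest in its knockout.

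The matrix held 8585 nuclei, between 1406 and 3328 per library, and between 4984625 and 9106522 unique molecular identifiers (UMIs, counts of captured RNA molecules) per library. The median nucleus held 3553.5 UMIs in WT-Sham, 2572 in KO-Sham, 3951 in WT-MI and 3959 in KO-MI, and 9 barcodes occurred in more than 1 library. Nfe2l1 itself stood at 62.2 CPM (counts per 1000000 UMIs) in WT-Sham, 50.5 in KO-Sham, 47.4 in WT-MI and 55.3 in KO-MI. The last value was above that of WT-MI and goes against the label, so every library is named below only by its label. Where in the gene the deleted part lies is not given in the sources used here, so 3′ tags may not report the deletion. Cardiomyocyte markers were high throughout, with summed levels of 8 genes between 31702 and 36867 CPM. The list of 11 myeloid genes, which mark macrophages and related cells, summed to 111.1 CPM in WT-Sham, 75.1 in KO-Sham, 201.5 in WT-MI and 143.5 in KO-MI, and of its defining genes only Cd163 stood at 0, in both Sham libraries.

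The UMIs of each gene were added up within a library. Differences are log2 ratios of CPM from which the median over all genes with 100 or more UMIs in both libraries together was subtracted, so that 0 stands for the typical gene. The 95% interval in brackets, printed for part of the ratios, covers counting error only. A member is counted as higher or lower when this ratio reached 1.5-fold, which is 0.585 on the log2 scale. UMIs do not separate fewer molecules per nucleus from fewer nuclei that hold any, and levels are not compared between genes.

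The first question was how the genes stood after infarction, in each genotype. In the libraries labelled WT, 43 of the 45 members passed the count filter, of which 2 were higher and 6 were lower in WT-MI than in WT-Sham. Those 8 stand beside 19.9% of all genes past the same fold, 10.3% higher and 9.61% lower, so the members were not past it more often than genes in general. In the libraries labelled KO, 1 of 44 members was higher and 4 were lower, beside 20.3% of all genes, 9.13% higher and 11.2% lower. The autophagy members lay mostly below the typical gene, with a median of -0.33 in both genotypes, 22 of 28 below 0 in WT and 20 of 28 in KO. The lysosome members did not share that position, and their median was 0.10 over 12 members in WT and -0.13 over 13 members in KO.

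The WT and KO ratios share no library. Of the 42 members measured in both, 24 were below 0 in both, 9 above 0 in both and 9 differed in sign. That is 33 with the same sign, beside 78.4% of 9529 genes. Over these 42 members Spearman's rho between the ratios of the 2 genotypes was 0.76, and it was 0.78 over all genes, given as a description since all members of a comparison share the same 2 libraries. Past the fold in both genotypes were Ctsb upward, beside 6.89% of all genes, and Map1lc3a, Map1lc3b and Pink1 downward, beside 5.69%.

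**Figure D1:**
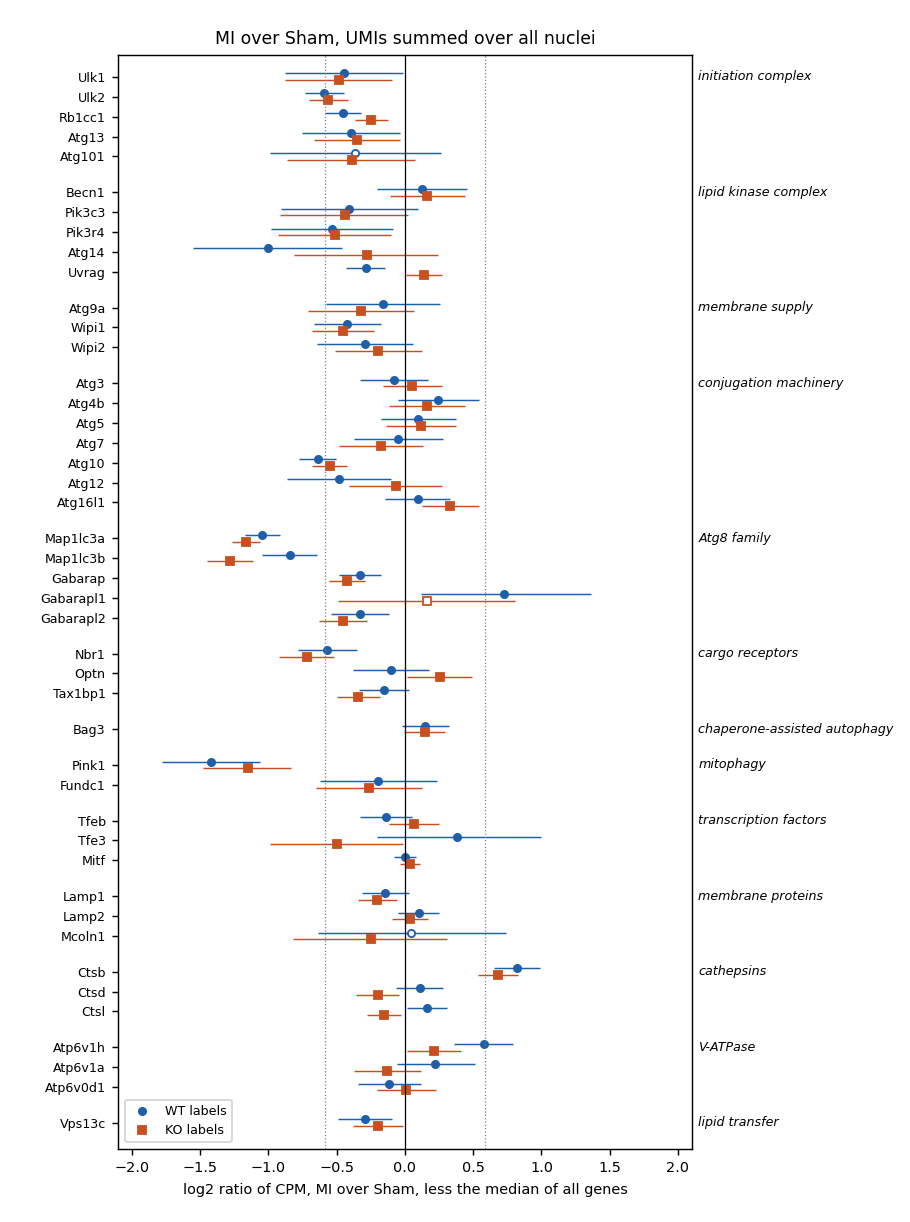
Log2 ratio of CPM, MI over Sham, less the median of all genes (horizontal axis), for 44 of the 45 members grouped by role, in the libraries labelled WT (circles) and KO (squares). Bars are 95% counting intervals, open symbols mark members under 100 UMIs, dotted lines mark 1.5-fold, and Map1lc3a, Map1lc3b and Pink1 lie left of them and Ctsb right of them in both genotypes.

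The Atg8 family held the largest differences among the autophagy members. Its proteins are attached to the lipid of the growing membrane and recruit both cargo and the fusion machinery. Map1lc3a, which encodes LC3A, stood at 234 CPM in WT-Sham, 109 in WT-MI, 315 in KO-Sham and 145 in KO-MI. Both MI libraries were below both Sham libraries and no intervals overlapped, with ratios of -1.04 [-1.17, -0.92] in WT and -1.16 [-1.26, -1.06] in KO. Map1lc3b, which encodes LC3B, the usual marker of autophagosomes, stood at 89.1 CPM in WT-Sham, 47.6 in WT-MI, 121 in KO-Sham and 51.6 in KO-MI. Its ratios were -0.84 [-1.05, -0.64] and -1.28 [-1.45, -1.11], so that the KO-Sham library was the highest and the MI libraries lay close together.

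Gabarap and Gabarapl2, of the second branch of the family, were lower after MI to a smaller extent and did not reach the fold. Gabarap had ratios of -0.33 [-0.48, -0.17] in WT and -0.42 [-0.56, -0.29] in KO, and Gabarapl2 of -0.33 [-0.54, -0.12] and -0.46 [-0.63, -0.28]. Gabarapl1 went the other way in WT, from 6.42 CPM in WT-Sham (32 UMIs) to 10.2 in WT-MI (81 UMIs), a ratio of 0.72 [0.12, 1.36], but 0.29 in CM1 nuclei alone. In the KO libraries it had 44 and 41 UMIs and did not pass the filter. The family as a whole summed to 517.8 CPM in WT-Sham, 310.8 in WT-MI, 649.2 in KO-Sham and 361.7 in KO-MI.

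**Figure D2:**
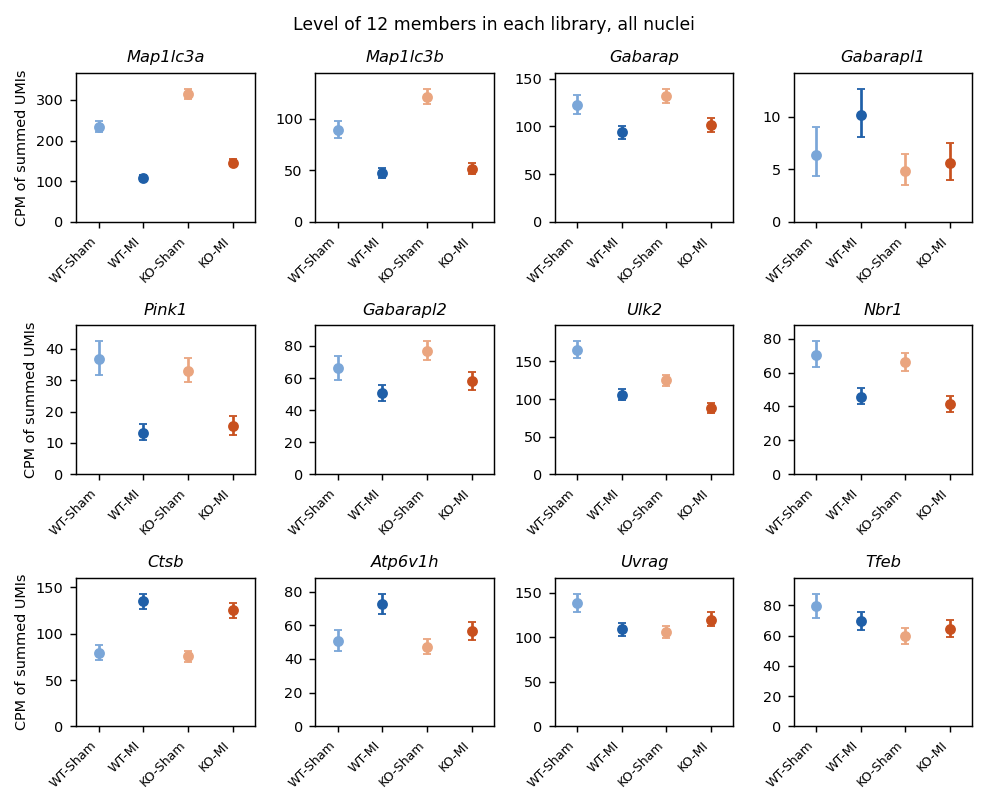
CPM of summed UMIs (vertical axis, from 0) of 12 members in each of the 4 libraries, with 95% Poisson intervals that cover counting error only. Map1lc3a, Map1lc3b, Pink1, Ulk2 and Nbr1 are lower and Ctsb is higher in both libraries labelled MI, while Uvrag orders the libraries differently in the 2 genotypes.

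Summed over all nuclei, the genes that start the process lay below the typical gene without exception. The initiation complex, which consists of the kinases Ulk1 and Ulk2 and their partners Rb1cc1 (FIP200), Atg13 and Atg101, had ratios between -0.59 and -0.40 for the 4 members measured in WT and between -0.56 and -0.25 for all 5 in KO. Ulk2 stood at 165 CPM in WT-Sham, 105 in WT-MI, 125 in KO-Sham and 87.4 in KO-MI, with ratios of -0.59 [-0.73, -0.45] and -0.56 [-0.70, -0.42]. The first is just past the fold and the second just short of it. Rb1cc1, the scaffold of the complex, was at -0.46 [-0.59, -0.32] in WT and -0.25 [-0.37, -0.12] in KO. Atg13, the adaptor between kinase and scaffold, was at -0.40 [-0.76, -0.04] and -0.35 [-0.67, -0.04].

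Among the 5 members of the lipid kinase complex, which makes the phosphoinositide that marks the membrane, Becn1 was at 0.13 [-0.20, 0.46] in WT and 0.16 [-0.11, 0.44] in KO. The catalytic subunit Pik3c3 and the regulatory subunit Pik3r4 were at -0.41 and -0.53 in WT and at -0.44 and -0.51 in KO. These rested on 64 to 104 UMIs per library for Pik3c3 and 79 to 135 for Pik3r4. Atg14, which directs the complex to autophagosome formation, had few UMIs, with 68 in WT-Sham and 52 in WT-MI. Its ratio was -1.00 [-1.55, -0.46] in WT and -0.28 [-0.81, 0.24] in KO, and the WT value was -0.46 among nuclei with 3 to 7% mitochondrial UMIs. Uvrag, the subunit of the sister complex that acts in endosomes, stood at 139 CPM in WT-Sham, 109 in WT-MI, 106 in KO-Sham and 120.1 in KO-MI. It was lower after MI in WT, at -0.29 [-0.43, -0.14], and slightly higher in KO, at 0.14 [0.00, 0.27].

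The membrane supply genes Atg9a, Wipi1 and Wipi2 lay between -0.42 and -0.16 in WT and between -0.45 and -0.19 in KO, with Wipi1, which binds the marked lipid, lowest in both. The conjugation machinery, which couples the Atg8 proteins to lipid, was split. Atg10, the enzyme that couples Atg12 to Atg5, stood at 179 CPM in WT-Sham, 110.5 in WT-MI, 152 in KO-Sham and 107 in KO-MI, with ratios of -0.64 [-0.78, -0.50] and -0.55 [-0.68, -0.42]. The other 6 genes lay between -0.48 and 0.24 in WT and between -0.17 and 0.33 in KO. At their upper end, the protease Atg4b was at 0.24 [-0.05, 0.54] in WT and 0.16 [-0.12, 0.44] in KO, and Atg16l1, which places the coupling enzyme on the membrane, at 0.09 [-0.15, 0.33] and 0.33 [0.12, 0.54]. Atg5, Atg7 and Atg3 had intervals that held 0 in both genotypes. Of the cargo receptors, Nbr1, which binds ubiquitin and also sits at the sarcomere, stood at 70.6 CPM in WT-Sham, 45.8 in WT-MI, 66.1 in KO-Sham and 41.4 in KO-MI. Its ratios were -0.57 [-0.78, -0.35] and -0.72 [-0.92, -0.52], while Tax1bp1 was at -0.15 and -0.34 and Optn at -0.10 and 0.26. Bag3, the co-chaperone that hands damaged muscle proteins to autophagy, was at 0.15 [-0.02, 0.32] and 0.14 [-0.01, 0.29].

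Of the mitophagy members, Pink1 was the lowest member of all in WT, with 36.7 CPM in WT-Sham, 13.2 in WT-MI, 33.1 in KO-Sham and 15.4 in KO-MI. Its ratio was -1.42 [-1.78, -1.06] in WT, or 2.67-fold lower, and -1.15 [-1.48, -0.84] in KO, and 11.7% of WT-Sham nuclei held a Pink1 UMI against 4.99% of WT-MI nuclei. Fundc1, a receptor in the outer mitochondrial membrane, was at -0.20 and -0.26 with intervals that held 0.

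The lysosome members were led by Ctsb, which encodes cathepsin B, a cysteine protease. It stood at 79.6 CPM in WT-Sham, 135 in WT-MI, 75.6 in KO-Sham and 125 in KO-MI, with ratios of 0.82 [0.65, 0.99] and 0.68 [0.54, 0.83]. Both MI libraries were above both Sham libraries, and KO over WT after MI was -0.14 [-0.27, -0.01]. The other 2 cathepsins among the members did not reach the fold. Ctsd, the main aspartic protease, was at 0.11 [-0.07, 0.28] in WT and -0.20 [-0.36, -0.04] in KO, and Ctsl at 0.16 [0.02, 0.31] and -0.15 [-0.28, -0.03].

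Cathepsins are abundant in macrophages, and the summed myeloid list was higher after MI by 0.92 in WT and 0.89 in KO on the same log2 scale. In nuclei without a UMI of any of the 11 myeloid genes, the Ctsb ratio was 0.88 in WT and 0.68 in KO. Such nuclei were 975 of 1406 in WT-Sham and 971 of 2003 in WT-MI. In the KO libraries they were 2765 of 3328 in Sham and 1086 of 1848 in MI. In CM1 nuclei the Ctsb ratio was 0.88 and 0.77. The 10 nuclei richest in Ctsb held 6.79% of its UMIs in WT-MI, where 1 nucleus held 23, and 4.66% in KO-MI. The part of myeloid RNA in the Ctsb ratios was not tested.

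Of the V-ATPase subunits, Atp6v1h, a regulatory subunit of the catalytic sector, stood at 50.8 CPM in WT-Sham, 72.6 in WT-MI, 47.1 in KO-Sham and 56.4 in KO-MI, with ratios of 0.58 [0.36, 0.79] and 0.21 [0.01, 0.41]. Atp6v1a and Atp6v0d1 had intervals that held 0 in both genotypes. The regulators lay close to the typical gene, with Tfeb at -0.14 [-0.33, 0.05] and 0.07 [-0.11, 0.25], and Mitf, the one with most UMIs, at 0.00 [-0.08, 0.08] and 0.04 [-0.03, 0.11]. Tfe3, with 37 UMIs in WT-Sham, was at 0.38 [-0.20, 0.99] in WT and -0.50 [-0.99, -0.01] in KO. The membrane proteins Lamp1 and Lamp2, which line the lysosome, stayed between -0.20 and 0.10, the sign of Mcoln1, a calcium channel, was within its counting error in both genotypes, and Vps13c, a lipid transfer protein at contact sites, was at -0.29 and -0.20.

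The promoters of the lowest and of the motif-bearing members are printed to show what sequence the ratios can be set against. They come from RefSeq on GRCm38.p6, run from 250 bases before to 50 bases after the transcription start, and were given for 35 of the 45 members in 42 windows. Capitals mark CACGTG, the core of the site that Tfeb and its relatives bind, and TGACNNNGC, the core of the antioxidant response element, searched on both strands. CACGTG reads the same on both strands, and the motifs did not overlap in the windows shown. Pink1 (chr4:138326247-138326546, minus strand) was the lowest member after MI in WT and held neither motif, Map1lc3b (chr8:121590188-121590487, plus strand) was the lowest in KO and held 1 TGACNNNGC, and Ctsd (chr7:142387778-142388077, minus strand) and Atp6v1a (chr16:44139210-44139509, minus strand), close to the typical gene, held both.
Pink1: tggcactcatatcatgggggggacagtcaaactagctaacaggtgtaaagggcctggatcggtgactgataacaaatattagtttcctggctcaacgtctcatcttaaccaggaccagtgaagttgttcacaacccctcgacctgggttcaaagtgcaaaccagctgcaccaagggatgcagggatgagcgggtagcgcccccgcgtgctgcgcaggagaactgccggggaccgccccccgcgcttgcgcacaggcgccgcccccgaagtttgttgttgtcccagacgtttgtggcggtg
Map1lc3b: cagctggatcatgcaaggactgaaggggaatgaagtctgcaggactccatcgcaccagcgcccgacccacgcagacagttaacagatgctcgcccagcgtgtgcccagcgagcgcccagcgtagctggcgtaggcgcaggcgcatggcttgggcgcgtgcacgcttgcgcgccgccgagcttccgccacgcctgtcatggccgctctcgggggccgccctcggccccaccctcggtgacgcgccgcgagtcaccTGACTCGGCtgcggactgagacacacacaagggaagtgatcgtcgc
Ctsd: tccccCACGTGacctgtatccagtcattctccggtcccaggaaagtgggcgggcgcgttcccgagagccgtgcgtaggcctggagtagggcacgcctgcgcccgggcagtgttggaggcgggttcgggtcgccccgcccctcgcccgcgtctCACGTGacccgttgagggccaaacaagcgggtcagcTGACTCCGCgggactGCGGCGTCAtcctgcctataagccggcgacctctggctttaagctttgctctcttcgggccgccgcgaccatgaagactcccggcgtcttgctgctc
Atp6v1a: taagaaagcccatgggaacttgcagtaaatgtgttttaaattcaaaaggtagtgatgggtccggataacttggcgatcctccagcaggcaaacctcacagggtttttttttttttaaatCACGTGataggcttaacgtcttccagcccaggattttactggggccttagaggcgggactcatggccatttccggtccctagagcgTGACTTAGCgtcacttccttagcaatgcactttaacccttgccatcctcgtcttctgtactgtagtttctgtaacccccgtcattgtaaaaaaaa

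CACGTG was found in 6 of 15 windows of lysosome members and in 4 of 25 windows of autophagy members, beside 7.15% of all 32851 windows. The 6 lysosome genes were Atp6v0d1, Atp6v1a, Ctsd, Ctsl, Lamp1 and Mcoln1, whose MI over Sham ratios lay between -0.14 and 0.22 for the 5 measured in WT and between -0.25 and 0.01 for all 6 in KO. The 4 autophagy genes were Atg14, Atg3, Atg5 and Atg7. Their ratios lay between -1.00, that of Atg14, and 0.10 in WT and between -0.28 and 0.12 in KO. TGACNNNGC was found in 7 of 42 member windows, or 16.7%, beside 12.4% of all windows. A match describes letters in the window and shows no binding.

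Other genes of the same pathways, 91 in 4 lists, were read in the same way. In WT, 5 of 83 measured were higher and 8 lower past the fold, which is 15.7% beside 19.9% of all genes, and in KO 5 of 87 were higher and 10 lower, which is 17.2% beside 20.3%. Vmp1, a membrane protein needed early in autophagosome formation, stood at 88.3 CPM in WT-Sham, 159 in WT-MI, 93.2 in KO-Sham and 171 in KO-MI, with ratios of 0.91 [0.75, 1.07] and 0.83 [0.70, 0.95]. The mitophagy receptor Bnip3, known as a hypoxia target, was at 0.92 [0.62, 1.23] in WT and 0.60 [0.35, 0.86] in KO, the opposite side of 0 from Pink1. Ctsz and Ctsc, further cathepsins, were at 1.18 and 0.59 in WT and at 0.63 and 0.64 in KO, and the lysosomal sulfatase Galns was at 0.28 and 0.75.

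At the low end, Calcoco1, a receptor for the autophagy of endoplasmic reticulum, had the lowest ratio of these genes in both genotypes, at -1.46 [-1.81, -1.11] and -1.54 [-1.92, -1.18]. Its level was 39.5 CPM in WT-Sham and 30.3 in KO-Sham against 13.8 in WT-MI and 10.7 in KO-MI. Of the nutrient sensing genes, which encode parts and regulators of the growth kinase complex mTORC1, Rragd was at -0.87 and -0.75 and Lamtor2 at -0.86 and -0.83. In each genotype 4 of 17 of these genes were lower past the fold with none higher, beside 9.61% of all genes lower in WT and 11.2% in KO. The V-ATPase subunit Atp6v1f was at -0.64 and -0.90, and Ctsf at -0.90 in KO. Sqstm1, which encodes the cargo receptor p62, was at 0.37 [0.16, 0.59] and 0.18 [-0.02, 0.38], opposite in sign to Nbr1. Atg2a, a lipid transfer protein, was at -0.54 and -0.45, and the protease Atg4d at -0.22 and 0.07.

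A list of 14 respiratory chain genes moved in the same direction as the Atg8 family in each comparison. Summed over its genes it was at -0.57 and -1.04 for MI over Sham in WT and KO, and at 0.75 and 0.25 for KO over WT in Sham and MI. The summed Atg8 family was at -0.68, -0.89, 0.42 and 0.19 in the same order. The part of the respiratory chain genes in the Atg8 values was not tested.

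Measures of RNA make-up also moved between Sham and MI. The median share of mitochondrial UMIs per nucleus was 6.58% in WT-Sham against 5.37% in WT-MI and 8.98% in KO-Sham against 5.29% in KO-MI. A list of 2 long RNAs kept in the nucleus, Malat1 and Neat1, summed to 92919 CPM in WT-Sham against 124056 in WT-MI and to 87639 in KO-Sham against 119419 in KO-MI. Nuclei with 3 to 7% mitochondrial UMIs were 755 of 1406 in WT-Sham and 1202 of 2003 in WT-MI. In the KO libraries they were 743 of 3328 in Sham and 1107 of 1848 in MI. Among them the MI over Sham ratios were -0.74 in WT and -1.14 in KO for Map1lc3a, -0.59 and -1.15 for Map1lc3b and -1.34 and -0.94 for Pink1. The part of the long nuclear RNAs in these values was not tested.

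The second question was whether the KO and WT libraries differed. In Sham, 43 members were measured, of which 1 was higher and 1 lower past the fold, beside 6.42% of all genes, 5.61% higher and 0.807% lower. Tfe3 was the higher, with 7.42 CPM in WT-Sham (37 UMIs) and 10.8 in KO-Sham (98 UMIs), a ratio of 0.63 [0.07, 1.22], and Atg14 the lower, at -0.59 [-1.08, -0.10]. The median was -0.09 over the autophagy members and 0.01 over the lysosome members. Map1lc3b at 0.55 [0.39, 0.71] and Map1lc3a at 0.53 [0.43, 0.63] came next at the high end with far more UMIs, and Gabarapl2 was at 0.32 [0.13, 0.51], Lamp1 at 0.27 [0.11, 0.43] and Gabarap at 0.20 [0.05, 0.34]. Thinning every nucleus to 1000 UMIs gave 0.35 for Map1lc3a and 0.29 for Map1lc3b, and CM1 nuclei alone gave 0.82 and 0.72.

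At the low end of the Sham comparison Tfeb was at -0.32 [-0.51, -0.13], Ulk2 at -0.31 [-0.44, -0.18] and Uvrag at -0.29 [-0.44, -0.15]. Of the other pathway genes 2 of 86 were higher past the fold and none lower, beside 5.61% higher and 0.807% lower of all genes. The 2 were Vamp8, a fusion protein of the autophagosome and lysosome, at 0.66 [0.41, 0.91] and Atp6v1f at 0.65 [0.43, 0.88]. Atp6v1g1 followed at 0.53, and Plekhm1, Atp6v0a1 and Epg5 were lowest at -0.42, -0.31 and -0.29. The KO-Sham library had the lowest UMIs per nucleus and the highest median mitochondrial share, 8.98% against 6.58% in WT-Sham, and the part of either in these ratios was not tested.

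After MI, 1 of 44 members was past the fold, beside 1.8% of all genes, 0.733% higher and 1.06% lower. It was Gabarapl1, with 10.2 CPM in WT-MI (81 UMIs) and 5.57 in KO-MI (41 UMIs), at -0.90 [-1.48, -0.34]. The median was -0.02 over the autophagy members and -0.14 over the lysosome members, of which 11 of 12 lay below 0, among them Atp6v1h at -0.39 [-0.58, -0.21], Tfe3 at -0.27 [-0.79, 0.25] and Ctsd at -0.25 [-0.41, -0.09]. Lamp1, at 0.19 [0.04, 0.34], was the exception. The myeloid list, also lower in KO-MI, summed to -0.52.

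Map1lc3a also stood above WT after MI, at 0.39 [0.26, 0.52], whereas Map1lc3b was at 0.09 [-0.12, 0.30]. Ulk2 was at -0.30 [-0.45, -0.15], close to its value in Sham, in a pair of libraries that the Sham comparison does not use. Optn, at 0.20 [-0.04, 0.45], and Pink1, at 0.19 [-0.21, 0.59], were among the highest members and Atg4b, at -0.28 [-0.55, -0.01], among the lowest. Atg101 was at 0.46 [-0.09, 1.02] after MI and 0.51 [-0.02, 1.06] in Sham, on 42 to 102 UMIs per library, so its sign was within counting error. Of the other pathway genes none of 85 was past the fold, beside 1.8% of all genes. The highest were Lamtor2 at 0.41, Atp6v1f at 0.37 and Phb2 at 0.34, and the lowest Usp30 at -0.51, Ctsz at -0.47 and Calcoco1 at -0.39. Sqstm1 was at -0.33 [-0.52, -0.14].

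**Figure D3:**
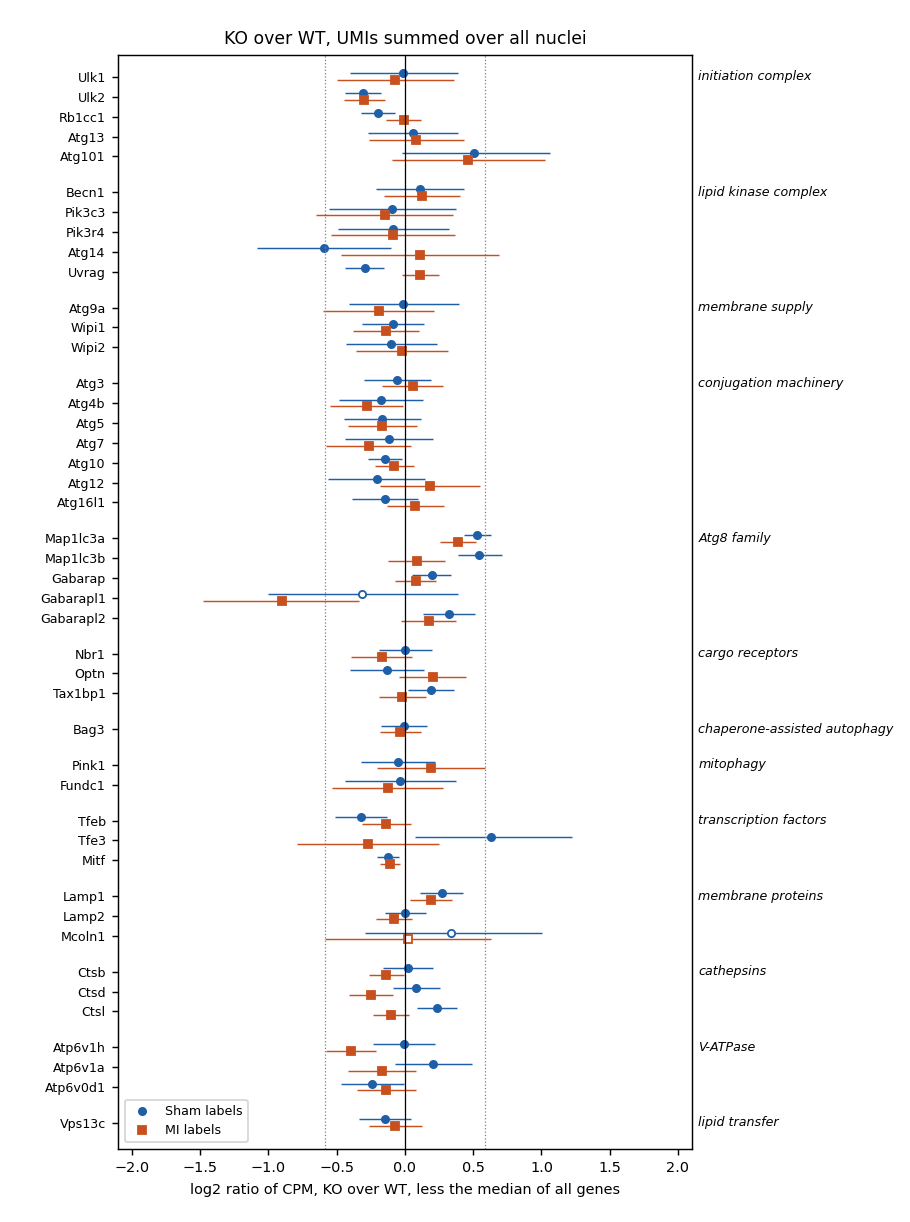
Log2 ratio of CPM, KO over WT, less the median of all genes (horizontal axis), for 44 of the 45 members grouped by role, in the libraries labelled Sham (circles) and MI (squares). Bars are 95% counting intervals, open symbols mark members under 100 UMIs and dotted lines mark 1.5-fold, and most members lie between them, with Map1lc3a right of 0 and Ulk2 left of 0 in both.

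Gene length ran through the KO over WT ratios. Across 43 members in Sham, Spearman's rho between the ratio and the span of the gene in the annotation was -0.64, and it was -0.41 across all 9695 genes with a span. After MI it was -0.34 across 44 members and -0.28 across all genes. The points share the same 2 libraries in each case. Members spanning under 20 kb had a median of 0.21 in Sham and those of 20 kb or more of -0.12, beside 0.16 and -0.06 for all genes. The span of Uvrag is 256 kb and that of Map1lc3a 1.78 kb. For MI over Sham the rho of the members was 0.02 in WT and 0.29 in KO, beside 0.09 and 0.23 for all genes.

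**Figure D4:**
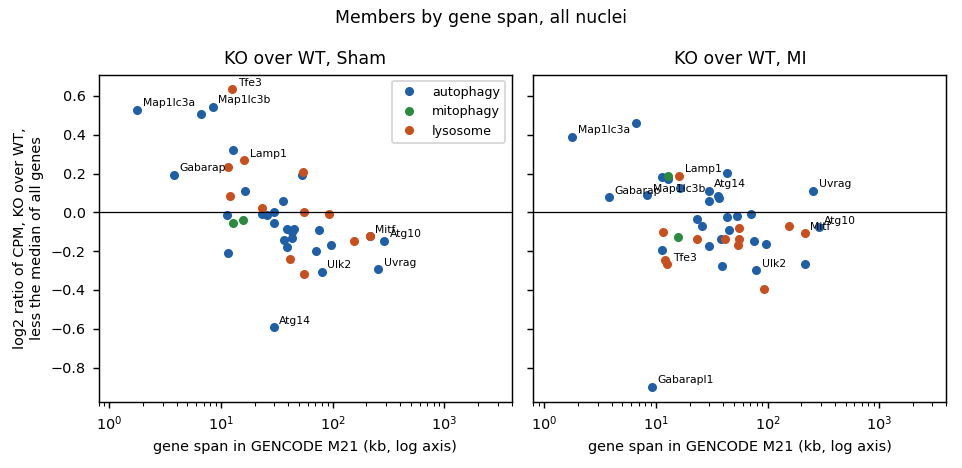
Log2 ratio of CPM, KO over WT, less the median of all genes (vertical axis), against the span of members in kb (horizontal log axis), for the libraries labelled Sham (left) and MI (right). Map1lc3a, the shortest, sits above 0 in both, at 0.53 and 0.39.

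The authors had labelled each nucleus as 1 of 4 populations, CM1, CM2, CM4 or CM5, from the expression of the same nuclei, so differences between them are a description. CM1, the main population, held 1098 to 2619 nuclei per library, CM2 27 to 124, CM4 118 to 351 and CM5 89 to 355. Each was compared with CM1 of the same library. CM4 had the lowest UMIs per nucleus and its median gene stood below that of CM1 by -0.56 to -0.13, and the ratios are relative to that median, without which no sign given here for CM4 over CM1 changed. Its Atg8 family stood above CM1 in all 4 libraries, by 2.21 in WT-Sham, 1.56 in WT-MI, 0.74 in KO-Sham and 1.90 in KO-MI on the log2 scale, and the KO-Sham library was thus the lowest by a wide margin. Map1lc3a reached 688 CPM in CM4 of WT-Sham against 189.8 in CM1, and 467 against 307 in KO-Sham.

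The cathepsins were higher in CM4 as well, by 1.71 in WT-Sham, 1.20 in WT-MI, 0.80 in KO-Sham and 1.21 in KO-MI, and Ctsb, Ctsd and Ctsl were each above CM1 in all 4 libraries. Lamp1 was above by 0.73 to 1.67 and Pink1 by 0.73 to 2.07. Mitf was lower by -1.34 to -0.70 and Atg10 by -1.24 to -0.59, again in all 4 libraries. In the same nuclei the respiratory chain list was higher by 0.80 to 2.19, the endothelial list by 1.55 to 2.99 and the myeloid list by 0.74 to 1.26. Malat1 and Neat1 summed to 24307 to 59459 CPM in CM4 against 90994 to 123734 in CM1, and were lowest in CM4 of WT-Sham. Lists of 5 red blood cell genes and 7 fibroblast genes were also higher in CM4 of each library, with 3538 to 12805 CPM against 1891 to 3829 in CM1 for the former and 1765 to 2182 against 807 to 946 for the latter. Spearman's rho between the members' CM4 over CM1 ratio and gene span lay between -0.85 and -0.57, beside -0.59 to -0.49 for all genes. The part of these in the CM4 values was not tested.

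**Figure D5:**
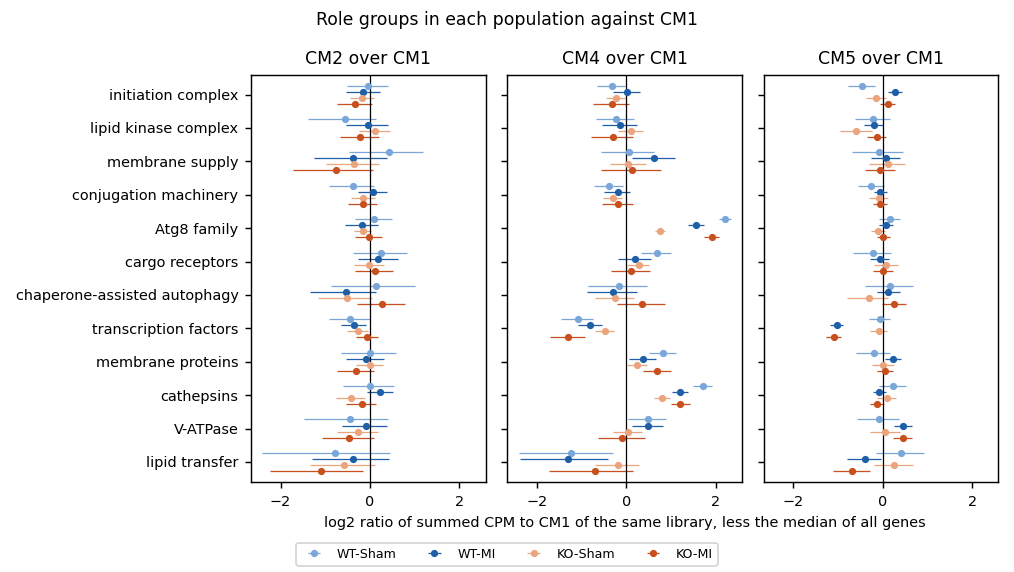
Log2 ratio of summed CPM of 12 role groups to CM1 of the same library, less the median of all genes (horizontal axis), for CM2, CM4 and CM5 in the 4 libraries. Bars are 95% counting intervals. In CM4 the Atg8 family and cathepsins lie right of 0 and the transcription factors left of 0 in every library. In CM5 the transcription factors lie left of 0 in every library, farther in both MI libraries.

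CM5, the population the study ties to injury, held more of a list of 5 injury genes than CM1 in all 4 libraries, by 1.46 to 1.70. This was shared with CM4, which stood above CM1 for the same list in all 4 libraries, by 0.73 to 1.77. CM5 was close to CM1 in its summed Atg8 family (-0.10 to 0.15) and its summed cathepsins (-0.13 to 0.22). Within the family Gabarapl1 ran from -0.58 to 1.82 over CM1, with 2 of 4 intervals above 0, on 53 CM5 UMIs in all. Of other members, Optn ran from -0.65 to 1.10, with 1 interval above 0, and Tfeb from -1.17 to 0.21, with 2 below 0. CM5 differed after MI in a few further members. Mitf stood at 209.8 CPM in CM5 against 465 in CM1 of WT-MI and at 208 against 439 in KO-MI, while the Sham libraries had 403 against 447 in WT and 338 against 376 in KO. The CM5 over CM1 ratios were -1.11 [-1.28, -0.94] in WT-MI and -1.10 [-1.28, -0.93] in KO-MI, against -0.13 in both Sham libraries. Atp6v1h was higher in CM5 after MI, at 0.66 [0.37, 0.93] in WT-MI and 0.85 [0.54, 1.16] in KO-MI, with wide intervals around 0 in Sham. Atg10 was at -0.68 in WT-MI and -0.75 in KO-MI, with intervals in Sham that held 0.

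The MI over Sham ratios were then read within populations. In CM1, the ratios of Map1lc3a were -0.84 [-1.00, -0.69] in WT and -1.31 [-1.44, -1.19] in KO, those of Pink1 -1.28 and -1.20, and those of Ulk2 -0.74 and -0.59. In CM5, Map1lc3a was at -1.50 [-1.90, -1.08] and -0.98 [-1.29, -0.67], but Ctsb was at 0.16 [-0.39, 0.75] and 0.01 [-0.42, 0.45]. Its CM5 level was 98.4 CPM in WT-Sham, 112 in WT-MI, 102 in KO-Sham and 111 in KO-MI. The initiation complex summed in CM5 to 298 CPM in WT-Sham, 305 in WT-MI, 294 in KO-Sham and 280 in KO-MI. In CM1 the complex summed to 416 CPM in WT-Sham, 260 in WT-MI, 331 in KO-Sham and 255 in KO-MI. In CM4 the genotypes separated, with Map1lc3a at -1.29 [-1.61, -0.97] in WT and 0.05 [-0.22, 0.33] in KO, and the summed Atg8 family at -0.89 [-1.10, -0.69] and 0.07 [-0.13, 0.25]. The respiratory chain list was at -0.95 and -0.17 in the same nuclei. Malat1 and Neat1 went the other way, from 24307 CPM in WT-Sham to 59459 in WT-MI and from 54077 in KO-Sham to 39043 in KO-MI, so that CM4 of WT-Sham stood apart in its RNA make-up. The part of either list in the CM4 ratios was not tested. Ctsb was higher after MI in CM4 of both genotypes, at 0.85 [0.38, 1.34] and 1.03 [0.55, 1.51].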

How the data were processed

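UMI counts per gene and nucleus were deposited by the authors without normalization. Their methods name Cell Ranger with a pre-mRNA reference of mm10/GRCm38, in which intron reads count. Scrublet doublets and nuclei outside 200 to 2500 detected genes were removed. The methods describe population labels transferred from an earlier reference with Seurat, after which CM1 and CM3 were merged. The population label used here is the one deposited for each nucleus, and its match to the transferred labels was not checked. The labels name version 2 of the 10x Genomics 3′ kit and the methods version 3. The authors also deposited the percent of mitochondrial UMIs per nucleus, and 11 further per-nucleus columns stayed unused. No doublet caller was run here.

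UMIs were summed per library, or per library and population, and given as CPM with exact Poisson intervals. Log2 ratios carry exact conditional binomial intervals. Genes entered with 100 or more UMIs over both sums. Population ratios are given with any count, beside their intervals. The steps were tested on simulated data. Python 3.11.15, numpy 2.4.6, scipy 1.17.1 and pandas 2.3.3 were used.

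The members and all lists were chosen with earlier results of these data known. The genes named with values are the 5 highest and 5 lowest members of each comparison, the member with most UMIs of each role, Sqstm1, Atg2a, Atg4d and Atg13, and the 3 highest and 3 lowest other pathway genes. Remaining members and the values by population were chosen after their values were seen. Alternatives were no centring, filters of 20 and 400 UMIs, thinning to 1000 UMIs per nucleus, means over nuclei, CM1 nuclei, nuclei with 3 to 7% mitochondrial UMIs, and nuclei without a myeloid UMI. Spans are from GENCODE M21. Strand use in the counting is not given in the sources used here, so members that overlap another gene, such as Ctsb with Fdft1, Atp6v1h with Rgs20 and Map1lc3b with Zcchc14, are uncertain. Of the members, 1 is counted in the totals and is otherwise not reported here.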

Additional observations from a re-analysis of the deposited data

Results flagged for a closer look

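Uvrag was flagged because its MI over Sham ratio had opposite signs in the genotypes with counting intervals that excluded 0 in each, at -0.29 in WT and 0.14 in KO. Ctsl was flagged for the same reason, at 0.16 in WT and -0.15 in KO. The medians of all genes subtracted here were -0.06 in WT and 0.05 in KO, and without that step both Ctsl intervals held 0. Mitf was flagged because its ratio differed in sign between populations of the same libraries. It was 0.11 in CM1 and -0.96 in CM5 in WT, and 0.18 in CM1, -0.57 in CM4 and -0.81 in CM5 in KO. With 1 library per group, none of these differences was tested.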

How the results depend on the processing

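Under all 8 alternatives the 8 medians moved by less than the counting error of a typical member. That limit is loose, since it is the error of a single gene and not of a median. The median of the lysosome members after MI in KO, -0.13, was 0.04 in nuclei with 3 to 7% mitochondrial UMIs. The counts past the fold moved more. The share of all genes past the fold under each alternative is not given here, so these counts are not read as a result about the members. For MI over Sham the 8 members in WT were 5 after thinning, which left 30 members with enough UMIs, and the 5 members in KO were 8 in CM1 nuclei and 8 in nuclei with 3 to 7% mitochondrial UMIs. For KO over WT in Sham the 2 members were 1 without centring, 1 with means over nuclei, 1 without myeloid UMIs, 0 after thinning, 0 with the filter of 400 UMIs and 4 in CM1 nuclei. For KO over WT after MI the 1 member was 2 with means over nuclei and 0 in CM1 nuclei, in the nuclei with 3 to 7% mitochondrial UMIs, in nuclei without myeloid UMIs and with the filter of 400 UMIs. Gabarapl1 had too few UMIs to enter there. Of 384 values of single named genes, 337 lay inside the main interval, 47 outside it, and none past the fold changed sign. Without centring, the signs of Mitf and Mcoln1 (MI over Sham, WT), of Atg13, Nbr1, Lamp2, Ctsb and Ctsd (KO over WT, Sham) and of Rb1cc1, Wipi2 and Tax1bp1 (KO over WT, MI) changed, each a ratio whose interval held 0. No paired analysis was possible because each group had 1 library. No replicate could be left out. Depth limits Gabarapl1, Atg14, Tfe3, Atg101 and Mcoln1 most.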
